A study of Mus musculus with 20 samples.

Results

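CXC chemokine ligands were followed in spinal cord microglia after injury. All 9 genes listed by symbol (Cxcl1, Cxcl2, Cxcl3, Cxcl9, Cxcl10, Cxcl12, Cxcl13, Cxcl14 and Cxcl16) were found among the 16810 genes of the expression table, and each was examined in all 7 groups of samples. The study sorted eGFP-bright cells by flow cytometry from a segment of thoracic cord in adult male CX3CR1+/eGFP mice and sequenced their polyadenylated RNA, giving 20 libraries. Non-injured (NI, n = 3) cord was compared with lateral hemisection (HS) and full transection (FT) at 72 h, 1 week and 2 weeks after the lesion. Each injured group had 3 libraries except HS at 1 week, which had 2. Every mouse, control or injured, carried 1 copy of Cx3cr1 replaced by eGFP, so no library represents a wild-type animal. The Cx3cr1 promoter is also active in monocytes and other macrophages, which the sort does not fully separate from microglia. The study counted more animals than libraries, so a library holds cells of several mice.

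Chemokines are small secreted proteins that guide migrating leukocytes through G protein-coupled receptors. The CXC family shares a spacing of its first conserved cysteines and is divided by function. Ligands with a glutamate-leucine-arginine motif, which include CXCL1, CXCL2 and CXCL3, attract neutrophils through CXCR2. CXCL9 and CXCL10 are induced by interferons and attract activated T cells and natural killer cells through CXCR3. CXCL12 and CXCL13 organise resident tissues through CXCR4 and CXCR5, CXCL14 is constitutive in many epithelia, and CXCL16 is made as a transmembrane protein whose shed form binds CXCR6. Microglia are a known source of several of these ligands in the injured nervous system.

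The 9 genes lie on 4 chromosomes of the mouse genome (GRCm38). Cxcl1 (chr5:90891241-90893115, plus strand), Cxcl2 (chr5:90903871-90905938, plus strand) and Cxcl3 (chr5:90786103-90789600, plus strand) are neighbours on chromosome 5. Cxcl9 (chr5:92321347-92328079, minus strand), Cxcl10 (chr5:92346638-92348889, minus strand) and Cxcl13 (chr5:95956951-95961068, plus strand) lie further along the same chromosome. Cxcl12 is at chr6:117168535-117181367 on the plus strand, Cxcl14 at chr13:56288643-56296551 on the minus strand and Cxcl16 at chr11:70453983-70459984 on the minus strand. Coding sequences of Cxcl2 and Cxcl3 were 89.8% identical, and their transcripts shared an unbroken run of 110 bases, so the counts of these paralogs are uncertain to the extent that reads fell in such stretches. Cxcl1 was 78.7% identical to Cxcl2 and 75.6% identical to Cxcl3, with a longest shared run of 23 bases in each case. Art3 overlaps Cxcl10 over 2252 bases and Zmynd15 overlaps Cxcl16 over 552 bases, both on the opposite strand. Whether counting used strand is not given in the sources used here, but Art3 never exceeded 2.89 CPM (counts per library scaled to a common size, the unit of all levels) and Zmynd15 never exceeded 10.5 CPM.

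Promoters are shown for the ligands whose levels moved together, Cxcl1 with Cxcl2 and Cxcl9 with Cxcl13, and for Cxcl10. Each is the 250 bases before the gene's start in RefSeq on build GRCm38.p6, which for Cxcl1 and Cxcl2 lies inside the gene as given above from GENCODE, read 5′ to 3′ on the gene's own strand, and 8 of the 9 members matched an entry. Capitals mark matches to the interferon-stimulated response element core GAAANNGAAA or the kappaB pattern GGGNNNNNCC, searched on both strands, with overlapping matches run together. The windows are chr5:90890995-90891244 (plus) for Cxcl1, chr5:90903649-90903898 (plus) for Cxcl2, chr5:92328080-92328329 (minus) for Cxcl9, chr5:92348890-92349139 (minus) for Cxcl10 and chr5:95956689-95956938 (plus) for Cxcl13.
Cxcl1: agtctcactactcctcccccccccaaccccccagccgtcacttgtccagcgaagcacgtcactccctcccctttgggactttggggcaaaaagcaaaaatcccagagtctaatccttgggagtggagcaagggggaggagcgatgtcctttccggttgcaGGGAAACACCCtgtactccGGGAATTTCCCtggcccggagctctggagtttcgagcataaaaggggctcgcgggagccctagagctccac
Cxcl2: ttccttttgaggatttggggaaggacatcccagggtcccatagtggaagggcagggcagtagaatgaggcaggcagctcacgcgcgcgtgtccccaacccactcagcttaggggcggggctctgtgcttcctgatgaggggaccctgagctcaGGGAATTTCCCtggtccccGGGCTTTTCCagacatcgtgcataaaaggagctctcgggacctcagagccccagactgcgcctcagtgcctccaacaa
Cxcl9: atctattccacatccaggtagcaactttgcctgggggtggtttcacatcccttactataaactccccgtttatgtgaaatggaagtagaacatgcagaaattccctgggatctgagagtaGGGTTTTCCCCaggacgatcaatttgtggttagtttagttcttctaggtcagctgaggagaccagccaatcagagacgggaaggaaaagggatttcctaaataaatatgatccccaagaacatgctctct
Cxcl10: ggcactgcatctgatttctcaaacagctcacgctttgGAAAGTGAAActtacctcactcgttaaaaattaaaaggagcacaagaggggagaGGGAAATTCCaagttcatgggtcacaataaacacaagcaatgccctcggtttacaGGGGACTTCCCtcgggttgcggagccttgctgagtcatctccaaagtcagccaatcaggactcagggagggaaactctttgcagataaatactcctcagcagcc
Cxcl13: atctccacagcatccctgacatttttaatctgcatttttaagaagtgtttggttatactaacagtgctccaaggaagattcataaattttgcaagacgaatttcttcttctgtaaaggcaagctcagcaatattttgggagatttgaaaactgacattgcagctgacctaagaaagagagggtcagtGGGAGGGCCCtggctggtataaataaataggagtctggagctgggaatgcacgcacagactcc
The response element core lay 213 to 204 bases before the start of Cxcl10 and was found in 2 members, Cxcl10 and Cxcl14, against 2.98% of 32851 mouse promoters of the same length. The kappaB pattern was found in 7 members, but this loose pattern is in 45.8% of all promoters. Within the Cxcl1 and Cxcl2 windows it included the same 10 letters, GGGAATTTCC, 71 and 97 bases before the start. The gamma-activated site TTCNNNGAA, present in 7.02% of promoters, was matched in Cxcl14 alone. A match is a description of the sequence and not evidence of a bound factor.

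Library depth ranged from 3872918 to 34099232 reads on genes, so that 1 read was worth 0.033 to 0.292 CPM. A gene was called differentially expressed (DE) at a change of at least 2-fold and an adjusted p under 0.05 in limma with Benjamini-Hochberg adjustment over 16810 genes. The 8 microglia markers, P2ry12 and Tmem119 among them, summed to 12300 to 26900 CPM in every library, while the lymphocyte markers never exceeded 17.6 CPM. Monocyte markers, which summed to between 31 and 39.1 CPM in NI, were higher in each injured library, at 78.5 to 161 in HS and 120 to 291 in FT at 72 h. Immediate-early genes set 4 libraries apart: FT 2 weeks replicate 1, FT 1 week replicates 2 and 3 and HS 2 weeks replicate 1. These were low (578 to 1359 CPM summed, against 2078 to 7899 in the other 16). Some of the results that rest on them are also given without them.

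**Figure D1:**
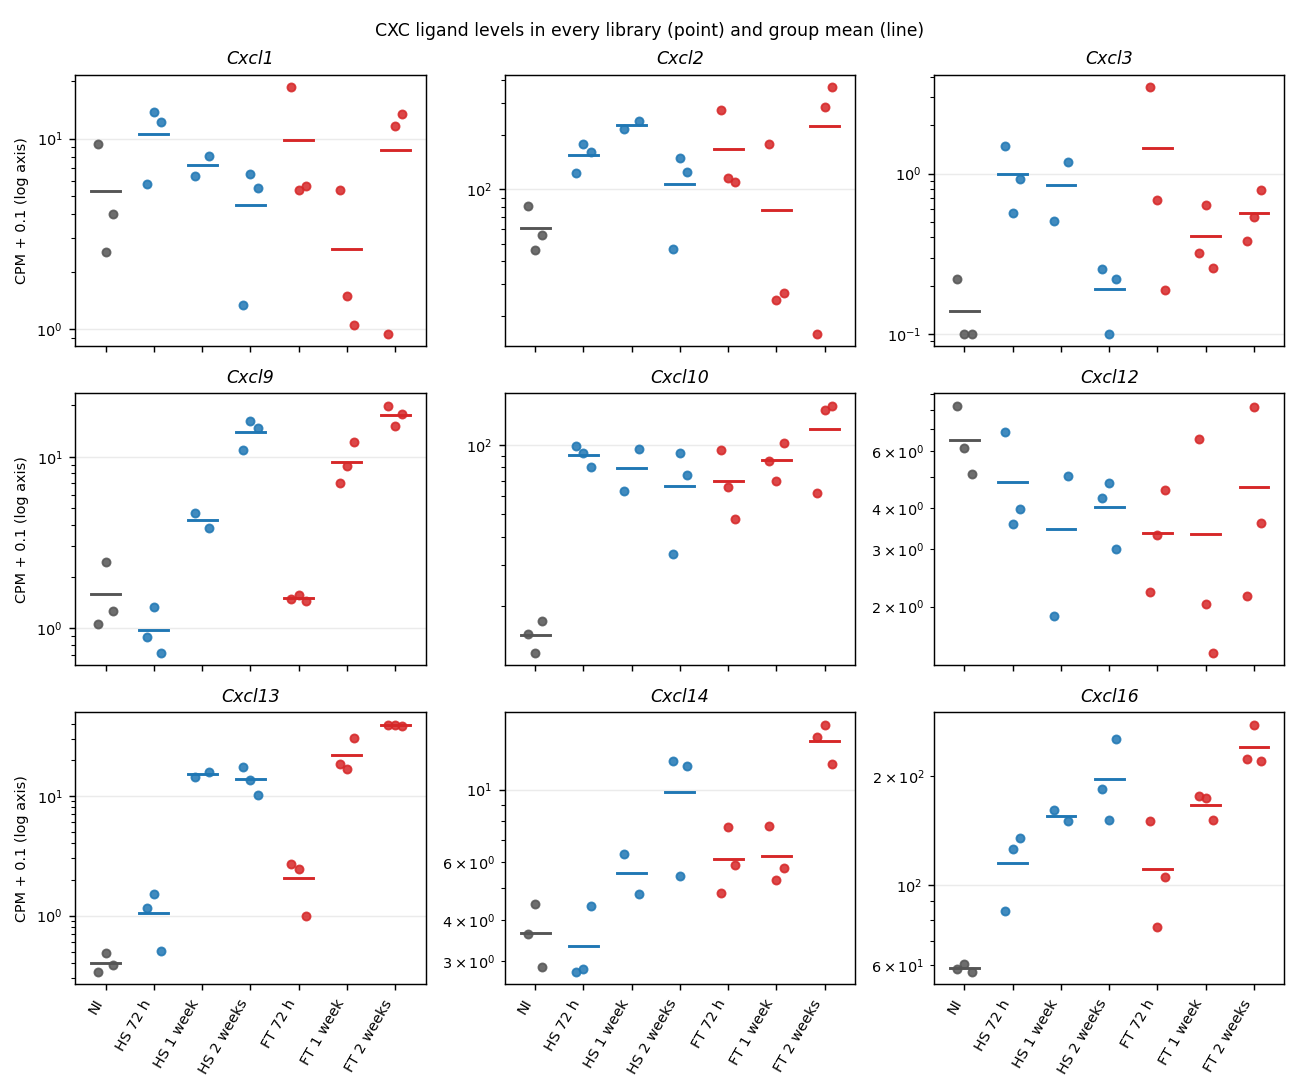
Level of each CXC ligand in every library, as CPM + 0.1 on a log axis with 1 panel per gene; points are libraries, horizontal lines group means, grey NI, blue HS and red FT. All 17 injured libraries lie above the 3 NI libraries for Cxcl10 and Cxcl16 and for Cxcl13, while Cxcl1, Cxcl2 and Cxcl12 overlap NI in several groups. For Cxcl13 the lowest injured library, HS 72 h replicate 3, held 2 reads and NI replicate 2 held 3.

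After injury the members that met the DE criterion were all higher than NI. After HS, 2 of 9 members were higher than NI at 72 h (9.08% of all genes were called higher), 4 of 9 at 1 week (1.7% of all genes) and 5 of 9 at 2 weeks (2.43% of all genes). After FT, 3 of 9 were higher at 72 h (8.14% of all genes), 4 of 9 at 1 week (2.86% of all genes) and 5 of 9 at 2 weeks (3.53% of all genes). The share of all genes called in either direction was 13.4%, 2.18% and 3.23% after HS and 12.2%, 4.05% and 4.88% after FT, in order of time. The counts at 72 h include Cxcl3, which entered the deposited table only through libraries of that time. Every count except that of HS at 72 h includes Cxcl13, which entered it through injured libraries. Leaving out any 1 NI library lowered the HS count at 72 h from 2 to 1, and leaving out HS 1 week replicate 1 lowered that at 1 week from 4 to 2. The median log2 change over the 9 members was 0.93, 1.30 and 1.27 after HS and 0.85, 0.72 and 1.84 after FT, beside medians between -0.11 and 0.02 for all genes. Members whose libraries all lay above NI numbered 5, 7 and 5 after HS, where 24%, 20.2% and 14.5% of all genes did so, and 5, 6 and 6 after FT, where 22.2%, 11.4% and 17.3% did. The 5 in HS at 72 h include Cxcl13, at 2 reads in replicate 3. The HS and FT comparisons share the same 3 NI libraries and are given side by side. In bulk RNA, fewer cells of a type cannot be told apart from less RNA per cell.

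**Figure D2:**
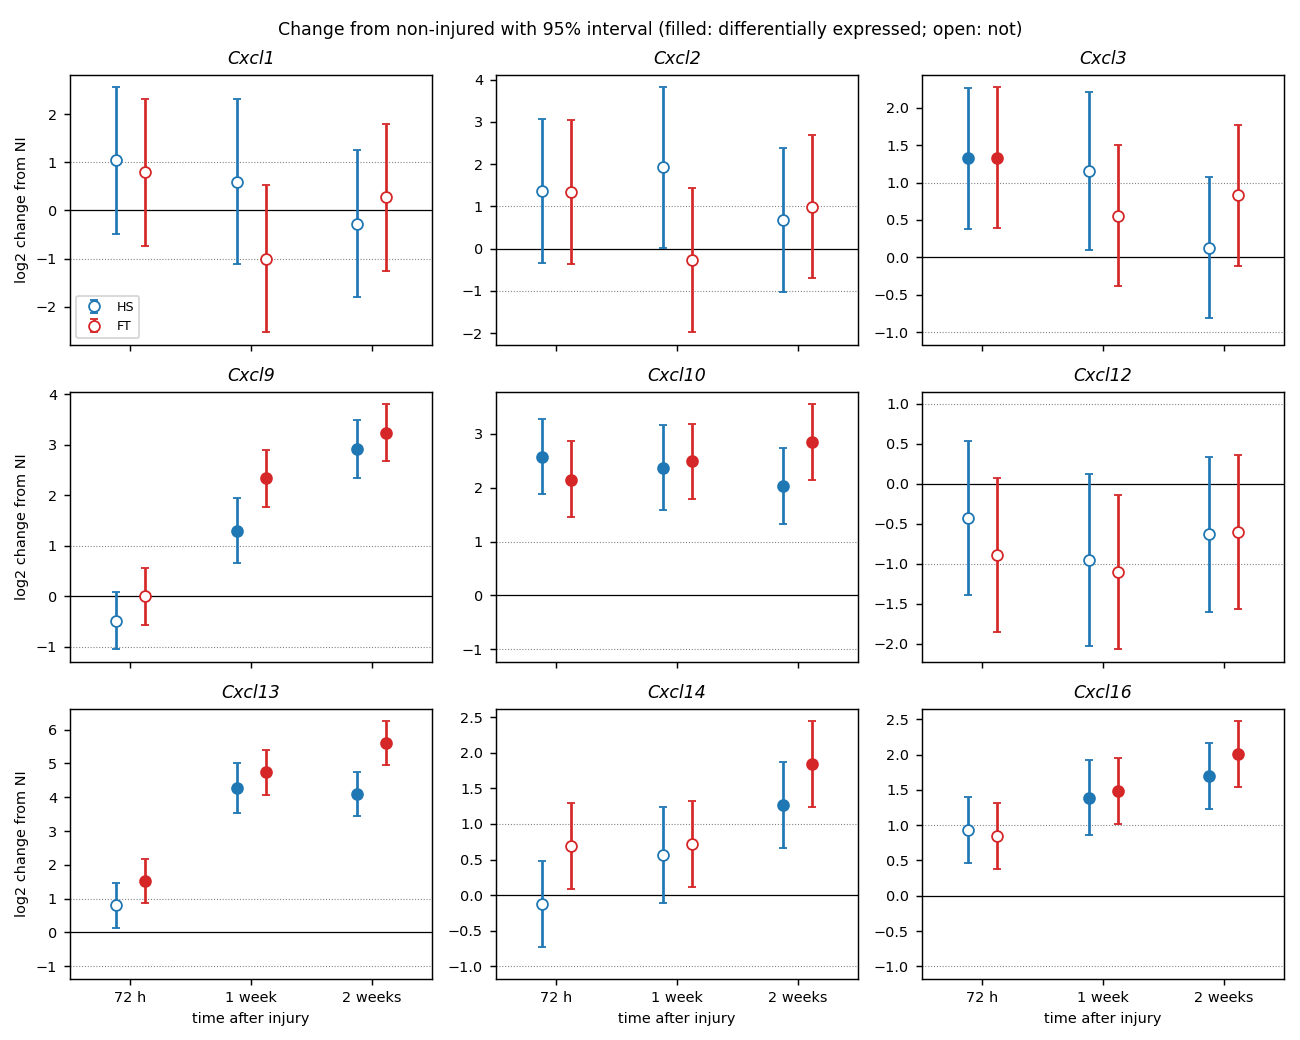
Log2 change from NI (y axis) of each CXC ligand against time after injury for HS (blue) and FT (red), with 95% intervals from the limma fit; filled points were differentially expressed and dotted lines mark 2-fold. Cxcl10 was raised at all 3 times, Cxcl9, Cxcl13, Cxcl14 and Cxcl16 were highest at 2 weeks after FT, and the intervals of Cxcl1 and Cxcl2 were wide.

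The interferon-inducible ligand Cxcl10 was the member raised in all 6 comparisons. Its level was 14.9, 12.4 and 17.1 CPM in the NI libraries. It was 99.3, 92.1 and 80.2 CPM in HS at 72 h and 95.6, 65.4 and 47.8 CPM in FT at 72 h. At 1 week the values were 63.0 and 95.9 CPM in HS and 85.4, 69.5 and 102 CPM in FT. Every library of these groups lay above every NI library. At 2 weeks it was 33.5, 92.1 and 73.7 CPM in HS and 61.9, 142 and 148 CPM in FT, the lowest value of each triplet coming from a library low in immediate-early genes. The log2 change from NI was 2.58 ± 0.34 (SE), 2.37 ± 0.38 and 2.02 ± 0.34 after HS at the 3 times, with adjusted p of 8.37e-06, 0.000594 and 0.000563 in limma. After FT it was 2.15 ± 0.34, 2.49 ± 0.34 and 2.86 ± 0.34, with adjusted p of 7.86e-05, 4.76e-05 and 5.24e-06 in limma. The mean was thus 4.5 to 7.95 times the NI mean. Its level did not differ by the criterion between any 2 times of one injury, and the injured groups overlapped each other.

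Cxcl9, the other interferon-inducible ligand of CXCR3, was at the NI level at 72 h and rose later. It was 0.953, 2.32 and 1.15 CPM in NI, 0.793, 1.23 and 0.615 CPM in HS at 72 h, and 1.37, 1.46 and 1.34 CPM in FT at 72 h. Both 72 h groups overlapped NI. It was 4.63 and 3.73 CPM in HS and 6.97, 8.74 and 12.1 CPM in FT at 1 week. By 2 weeks it reached 10.9, 16.0 and 14.7 CPM in HS and 19.8, 14.98 and 17.7 CPM in FT, all above every earlier library of HS. HS libraries at 72 h differed from NI by -0.48 ± 0.27 log2 and FT libraries by -0.00 ± 0.27, with adjusted p of 0.198 and 0.998 in limma. The difference was 1.30 ± 0.31 after HS and 2.33 ± 0.27 after FT at 1 week, and 2.91 ± 0.27 and 3.24 ± 0.27 at 2 weeks, with adjusted p of 0.0199, 6.68e-06, 3.38e-07 and 4.6e-08 in limma. The HS call at 1 week was lost when NI replicate 1 (1.11, adjusted p = 0.105), NI replicate 3 (1.203, 0.0877) or either HS library (1.16 and 1.44, 0.23 and 0.0959) was left out of the limma fit.

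At 1 and 2 weeks the largest fitted changes from NI among the members belonged to Cxcl13, the B cell attractant that signals through CXCR5. It was scarce in NI, at 0.238, 0.386 and 0.288 CPM (4, 3 and 3 reads). These are under the 10 reads required for the deposited table. Cxcl13 was thus kept through injured libraries, in which it is high, and its calls against NI carry that limit. HS libraries held 1.06, 1.41 and 0.41 CPM at 72 h and FT libraries 2.62, 2.34 and 0.89 CPM. In HS 72 h replicate 3 Cxcl13 stood at 2 reads, beside 3 reads (0.386 CPM) in NI replicate 2. At 1 week it was 14.3 and 15.8 CPM in HS and 18.3, 16.6 and 30.0 CPM in FT, far above all libraries of 72 h. At 2 weeks it was 17.3, 13.5 and 10.02 CPM in HS, overlapping HS at 1 week, and 39.0, 38.7 and 38.0 CPM in FT, above every other library. Means at 1 and 2 weeks were 49.4 and 44.7 times NI after HS and 71.2 and 127 times NI after FT. These ratios rest on the few reads of Cxcl13 in NI and are uncertain in size. The fitted changes were smaller, since 0.5 CPM was added to every value: 4.27 ± 0.35 and 4.10 ± 0.32 log2 after HS and 4.74 ± 0.32 and 5.61 ± 0.32 after FT, with adjusted p of 8.15e-08, 1.73e-08, 1.5e-09 and 6.03e-11 in limma. The estimate for FT at 2 weeks ran from 4.93 with 1 CPM added to 7.05 by DESeq2 on whole reads. FT libraries at 72 h were 1.53 ± 0.32 log2 above NI (adjusted p = 0.00121, limma) and HS libraries 0.80 ± 0.32 (adjusted p = 0.0648, limma). The HS value passed the criterion without HS 72 h replicate 3 (1.11, adjusted p = 0.0165, limma) and by edgeR quasi-likelihood (1.82, adjusted p = 0.0114).

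Both Cxcl9 and Cxcl13 rose between 72 h and 1 week within each injury. Of the 9 members these were the 2 called higher at 1 week than at 72 h after HS (1.95% of all genes called higher, 6.03% in either direction) and after FT (0.827% higher, 3.44% in either direction). The rise from 72 h to 1 week was 1.78 ± 0.31 log2 for Cxcl9 and 3.48 ± 0.35 for Cxcl13 after HS, and 2.34 ± 0.27 and 3.21 ± 0.32 after FT. From 72 h to 2 weeks, 3 members rose after HS (Cxcl9, Cxcl13 and Cxcl14; 1.37% of all genes called higher, 4.74% in either direction) and 4 after FT (the same genes and Cxcl16; 1.13% higher, 3.81% in either direction). Between 1 and 2 weeks limma called 0 of 9 after HS (0.0119% of all genes) and 0 of 9 after FT (0.0714% of all genes), with 2 and 4 members at an unadjusted p under 0.05. Of all 16810 genes 789 and 773 had such a p in limma. The edgeR quasi-likelihood test also called 0 in both. The edgeR likelihood ratio test and DESeq2 each called 1 member after HS, Cxcl9 (1.73 and 1.72, adjusted p of 0.00598 and 0.00618), where they called 0.0357% and 0.0238% of all genes. After FT they called Cxcl14 (1.18 and 1.17, adjusted p of 0.0256 and 0.0188), where they called 0.238% and 0.196% of all genes.

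Cxcl14, a constitutive chemokine of many tissues, rose at 2 weeks only by the criterion. Its NI levels were 3.52, 4.38 and 2.78 CPM. They were 2.68, 2.73 and 4.31 CPM in HS and 4.74, 7.59 and 5.79 CPM in FT at 72 h, and 6.26 and 4.69 CPM in HS and 7.63, 5.18 and 5.68 CPM in FT at 1 week. At 2 weeks it was 12.2, 5.34 and 11.7 CPM in HS and 14.4, 15.7 and 11.8 CPM in FT. From 72 h after FT and from 1 week after HS every injured library exceeded NI, while HS at 72 h overlapped NI. The change at 2 weeks was 1.27 ± 0.29 log2 after HS and 1.84 ± 0.29 after FT, with adjusted p of 0.01 and 0.000178 in limma. The HS call was lost without NI replicate 3 (1.13, adjusted p = 0.0652), HS 2 weeks replicate 1 (1.08, 0.0724) or replicate 3 (1.10, 0.0675), and with equal column totals (0.98, 0.0538, all limma). That call was also lost without the 4 libraries low in immediate-early genes (1.08, adjusted p = 0.0674, limma). Against 72 h it rose by 1.40 ± 0.29 after HS and 1.16 ± 0.29 after FT, with adjusted p of 0.00327 and 0.0182 in limma. The FT rise was lost without FT 72 h replicate 1 or 3 or FT 2 weeks replicate 1 or 2 (1.01 to 1.14, adjusted p of 0.0538 to 0.0847, limma). Earlier changes from NI lay between -0.13 and 0.72 and did not pass.

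Cxcl12, the ligand of CXCR4 that holds cells in resident niches, had lower means than NI in all 6 injured groups, but none passed limma's test or either edgeR test or DESeq2, and 1 had an unadjusted p under 0.05 in limma. NI libraries held 8.16, 6.05 and 4.99 CPM. Injured libraries ranged from 1.34 CPM in FT 1 week replicate 3 to 8.10 CPM in FT 2 weeks replicate 2. All libraries of HS at 1 week, HS at 2 weeks and FT at 72 h lay below NI, and the other 3 groups overlapped it. The log2 change was -0.43, -0.95 and -0.63 after HS and -0.90, -1.11 and -0.61 after FT, each with an SE of 0.46 or 0.52, and limma's adjusted p was 0.167 to 0.57. Without FT 1 week replicate 1 the FT change at 1 week became -1.68 (adjusted p = 0.0164, limma), without the 4 libraries low in immediate-early genes it became 0.036 (0.98), and with equal column totals the FT change at 72 h became -1.33 (adjusted p = 0.0366, limma). Endothelial markers, from cells that are a known source of this ligand, summed to between 60.7 and 88.5 CPM in NI libraries, between 40.2 and 50.3 CPM in HS at 1 week and between 26.8 and 60.3 CPM in FT at 1 week. In HS at 2 weeks and FT at 72 h, where every Cxcl12 library lay below NI, these sums were 50.4 to 84.7 and 54.3 to 71.4 CPM and overlapped NI. Of the 8 endothelial markers limma called 0 higher and 1 lower in both HS and FT at 1 week. It called 1 higher and 1 lower in HS at 2 weeks, and 0 higher and 0 lower in FT at 72 h. None of these 8 markers was at 0 in any library. Their part in the Cxcl12 level was not tested.

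Cxcl16, the transmembrane ligand that also acts as a scavenger receptor, climbed through the time course with little scatter in NI. Its NI levels were 58.6, 60.5 and 57.4 CPM. At 72 h it was 84.6, 125 and 135 CPM in HS and 150.4, 76.5 and 105 CPM in FT. At 1 week it was 161 and 150.0 CPM in HS and 176, 173 and 151 CPM in FT. At 2 weeks it was 184, 151 and 253 CPM in HS and 223, 277 and 219.6 CPM in FT. No injured library came down to the NI range. HS libraries at 72 h exceeded NI by 0.93 ± 0.23 log2 and FT libraries by 0.85 ± 0.23, with adjusted p of 0.00388 and 0.00841 in limma, short of 2-fold. It passed 2-fold without HS 72 h replicate 1 (1.14) and without FT 72 h replicate 2 (1.09). At 1 and 2 weeks the change was 1.39 ± 0.25 and 1.69 ± 0.23 after HS and 1.49 ± 0.23 and 2.01 ± 0.23 after FT, with adjusted p of 0.00208, 3.46e-05, 0.000166 and 2.47e-06 in limma. Without HS 1 week replicate 1 the HS value at 1 week was 1.34 with an adjusted p of 0.0533 in limma. The FT rise from 72 h to 2 weeks was 1.16 ± 0.23 (adjusted p = 0.0023, limma) and fell to 0.92 without FT 72 h replicate 2.

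Among the neutrophil attractants, no comparison with NI was called by limma for Cxcl1 or Cxcl2, and Cxcl3 was called at 72 h alone. Cxcl2 was among the most abundant members, at 81.0, 46.1 and 55.9 CPM in NI. It was 123, 177 and 162 CPM in HS and 274, 116 and 109 CPM in FT at 72 h, all above NI. It was 215 and 238 CPM in HS at 1 week, but 178, 24.5 and 26.7 CPM in FT at 1 week, on both sides of NI. At 2 weeks it was 46.9, 148 and 125 CPM in HS and 15.7, 284 and 368 CPM in FT. FT at 1 week and both groups at 2 weeks thus overlapped NI, while the groups at 72 h and HS at 1 week did not. The log2 change from NI was 1.35, 1.92 and 0.68 after HS and 1.34, -0.27 and 0.996 after FT, each with an SE of 0.82 or 0.92, and adjusted p was 0.227 to 0.912 in limma. A fit to the compared groups alone called Cxcl2 higher in HS at 72 h (adjusted p = 0.000386), in HS at 1 week (5.5e-05) and in FT at 72 h (0.0117, all limma), a fit in which the late groups do not enter the error.

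Low Cxcl2 went with low immediate-early genes, the transcripts that appear within minutes of a stimulus, cell handling included. This list of 8 genes (Fos, Fosb, Jun, Junb, Egr1, Ier2, Dusp1 and Atf3) was chosen after the values were seen. The 4 libraries lowest in it held 15.7, 26.7, 24.5 and 46.9 CPM of Cxcl2 and 0.842, 0.946, 1.39 and 1.25 CPM of Cxcl1, whereas the other 16 held 46.1 to 368 and 2.45 to 18.6 CPM. All 4 came from 1 or 2 weeks, so their rank over all libraries for ligands that rise late is set by time. Within its group Cxcl13 was highest in FT 2 weeks replicate 1 (39.0 CPM), HS 2 weeks replicate 1 (17.3) and FT 1 week replicate 3 (30.0). It was lowest in FT 1 week replicate 2 (16.6). Cxcl9 was highest of its group in FT 2 weeks replicate 1 (19.8 CPM) and FT 1 week replicate 3 (12.1). It was between the others in FT 1 week replicate 2 (8.74) and lowest in HS 2 weeks replicate 1 (10.9). Over the 20 libraries Pearson's r with the log2 sum was 0.65 for Cxcl2, 0.60 for Cxcl1 and 0.56 for Cxcl12, and -0.23 to -0.07 for the other 6 members. The points share 7 groups and their time courses, and NI had high sums with low Cxcl2. Without the 4 libraries the Cxcl2 change from NI was 1.35, 1.92 and 1.19 log2 after HS and 1.34, 1.58 and 2.44 after FT. These are given as values with no test, since the 4 libraries were chosen after the values were seen and hold the 3 lowest Cxcl2 levels of all 20, and FT at 1 week is left with 1 library. Whether immediate-early expression arose in the animal or during cell isolation was not tested.

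**Figure D3:**
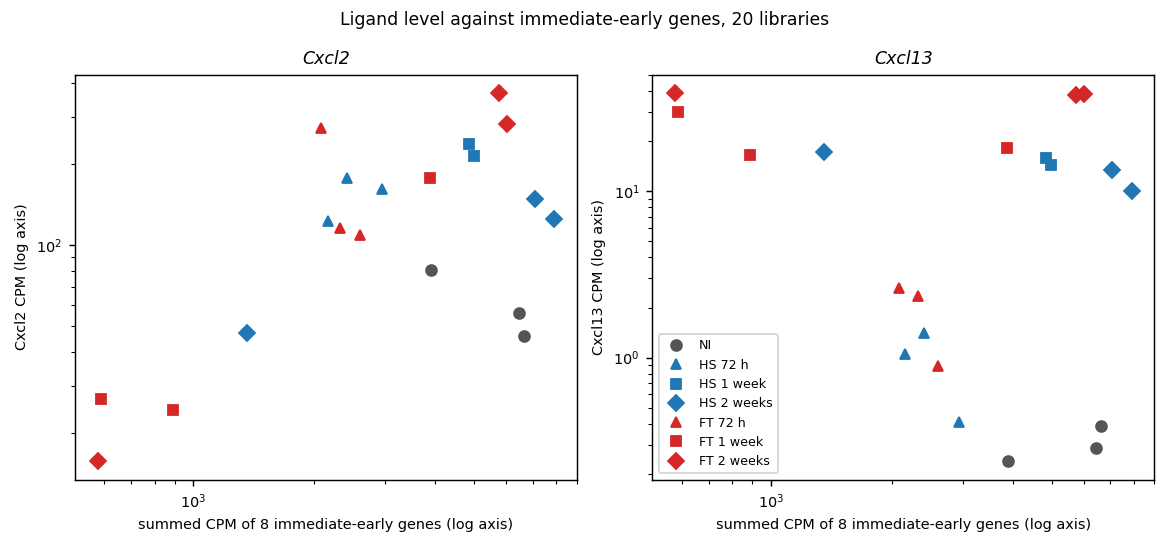
Cxcl2 (left) and Cxcl13 (right) in CPM against the summed CPM of 8 immediate-early genes, both on log axes, for the 20 libraries; colour gives NI, HS or FT and the symbol the time. The 4 libraries at the left, with sums of 578 to 1359 CPM, hold at most 46.9 CPM of Cxcl2. They are among the high libraries for Cxcl13, as are all libraries of 1 and 2 weeks, the times they come from.

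Cxcl1 ran parallel to Cxcl2 at a lower level. It was 9.24, 2.45 and 3.93 CPM in NI and ranged over injured libraries from 0.842 CPM in FT 2 weeks replicate 1 to 18.6 CPM in FT 72 h replicate 1. All 6 injured groups overlapped NI. The log2 change was 1.04, 0.60 and -0.28 after HS and 0.79, -1.004 and 0.27 after FT, each with an SE of 0.74 or 0.82, and adjusted p was 0.301 to 0.913 in limma. Its coefficient of variation was 68.6% in NI and up to 93.7% in FT at 1 week, and the 95% interval of its 2-fold change in HS at 72 h ran from -0.49 to 2.57 log2.

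Cxcl3 was at or under 2 reads in each NI library, with 2, 0 and 0 reads, and was higher at 72 h. It was 1.39, 0.471 and 0.82 CPM in HS and 3.37, 0.584 and 0.089 CPM in FT at 72 h. HS lay wholly above NI, whereas the lowest FT library lay within the NI range. Pooled reads numbered 51 in HS and 30 in FT, giving ratios to NI per CPM of 19.5 (exact 95% interval 5.13 to 165) and 23.1 (5.87 to 200), which cover counting error only. Cxcl3 reached the 10 reads required for the deposited table in HS 72 h replicate 1 (42 reads) and FT 72 h replicate 1 (27 reads) alone, so it was kept through the groups in which it is high, and its calls there support nothing beyond these reads. The limma change was 1.32 ± 0.45 after HS and 1.33 ± 0.45 after FT, with adjusted p of 0.0348 and 0.0363, and this estimate depends on the added 0.5 CPM. Both calls were lost with 1 CPM added (0.84 and 0.92, adjusted p of 0.0599 and 0.0443) and without any 1 NI library (1.27 to 1.44, adjusted p of 0.0516 to 0.102, limma). The HS call was also lost without HS 72 h replicate 1 (1.08, adjusted p = 0.149) or 3 (1.33, 0.0661), and the FT call without FT 72 h replicate 1 (0.57, 0.283) or in a fit to FT at 72 h and NI alone (1.33, 0.0978, all limma). Without FT 72 h replicate 3 the FT change became 1.93. At 1 and 2 weeks group means were 0.746 and 0.0922 CPM after HS and 0.307 and 0.468 CPM after FT, and none passed.

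Divided by exon length, the family's summed level rose from 73.5 ± 13.6 CPM per kb (SD, n = 3) in NI to 188 to 343 CPM per kb in the 6 injured groups. Cxcl2, Cxcl10 and Cxcl16 together made up 72.4% to 93.7% of it in each of the 20 libraries. In NI the order was Cxcl2 at 32.8, Cxcl16 at 21.8 and Cxcl10 at 9.72 CPM per kb. In HS and FT at 72 h Cxcl10 stood second, at 59.5 and 45.8 CPM per kb behind Cxcl2 at 82.8 and 89.5. Cxcl16 led in HS at 2 weeks and FT at 1 week, at 72.6 and 61.7 CPM per kb. Cxcl2 lay above Cxcl16 in HS 2 weeks replicate 2 (79.8 against 55.8) and in FT 1 week replicate 1 (95.9 against 65.1). Cxcl16 lay above Cxcl2 in the other libraries of these groups, of which HS 2 weeks replicate 3 alone was not low in immediate-early genes. The order of the means also depended on the length used. Per kb of a single transcript Cxcl2 led in HS at 2 weeks (96.3 against 72.6 for Cxcl16) and Cxcl10 in FT at 1 week (78.3 against 61.7), while Cxcl13 kept ranks 8 and 4. Cxcl13 rose from 0.264 CPM per kb in NI, rank 8 of 9, to rank 4 at 1 and 2 weeks of both injuries, at 11.8 to 33.5 CPM per kb. It then supplied a mean of 11.5% of the summed level in FT at 2 weeks (18.7%, 8.21% and 7.55% in replicates 1 to 3), against 0.378% in NI. FT 2 weeks replicate 1 was low in immediate-early genes, and Cxcl2 was 4.65% of its sum.

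**Figure D4:**
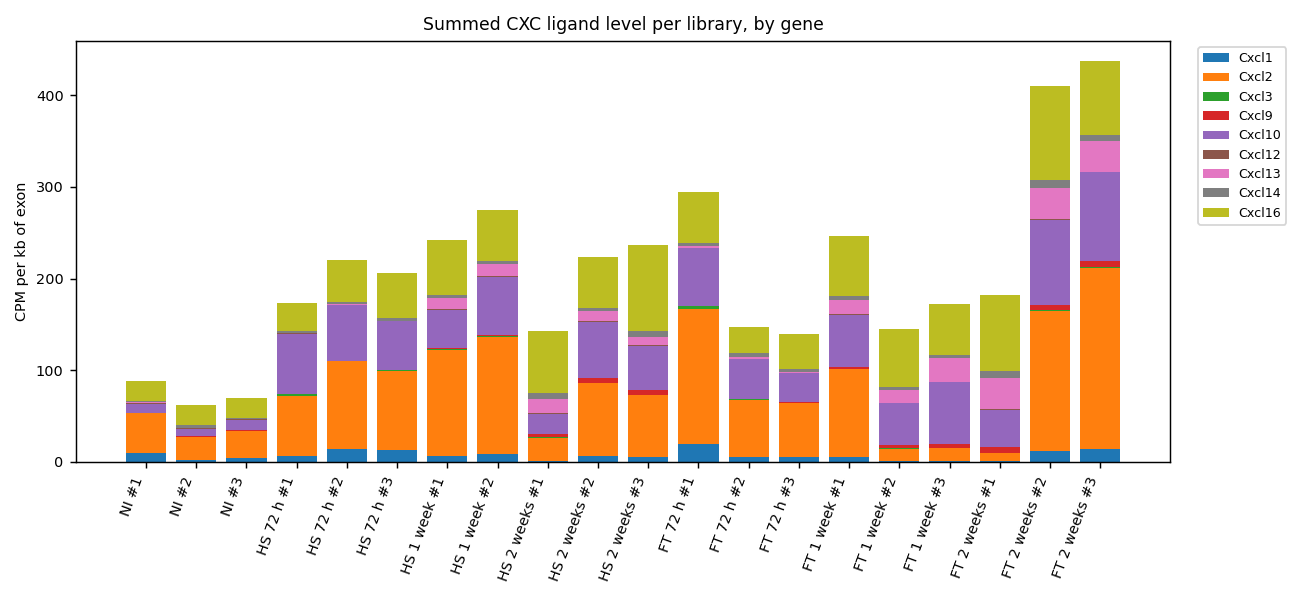
Summed level of the 9 CXC ligands in CPM per kb of exon for each of the 20 libraries (bars, labelled by group and replicate number), split by gene. NI libraries reach 62.3 to 88.5 CPM per kb and FT libraries at 2 weeks 182 to 438, and the share of Cxcl2 is smallest in the 4 libraries low in immediate-early genes.

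The severities were compared directly at each time, which asks whether full transection and hemisection differ. Limma called 0 of 9 members at 72 h, 1 week and 2 weeks, as it did 0% of all genes, with 2, 2 and 2 members at an unadjusted p under 0.05. Of all 16810 genes 505, 724 and 438 had such a p in limma. The edgeR quasi-likelihood test called 0 at each time, and the edgeR likelihood ratio test and DESeq2 called 1 member, Cxcl13 at 2 weeks. Cxcl13 was 1.503 ± 0.32 log2 higher after FT than HS at 2 weeks (95% interval 0.85 to 2.16, unadjusted p = 0.000106, adjusted p = 1 in limma), with the 3 FT libraries above the 3 HS libraries. The likelihood ratio test gave 1.51 with an adjusted p of 0.00735 and DESeq2 1.51 with 0.0101, and Cxcl13 was the 1 gene in 16810 that either called there (0.00595% of all genes). At 72 h and 1 week the difference was 0.73 (0.07 to 1.39) and 0.46 (-0.27 to 1.2).

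Other differences between severities were smaller or less certain. Cxcl9 was 1.03 higher after FT at 1 week (95% interval 0.40 to 1.67), with no overlap between the groups, while 15% of all genes did not overlap in that comparison. For Cxcl2 the difference at 1 week was -2.19 (-4.1 to -0.29), lower after FT, but 2 of the 3 FT libraries were those low in immediate-early genes. Over the alternatives this estimate ran from -3.12 to -0.34. Cxcl10 differed by 0.83 (0.13 to 1.54) at 2 weeks and Cxcl14 by 0.81 (0.21 to 1.41) at 72 h, both higher after FT. For Cxcl16 the difference was -0.08 (-0.55 to 0.39), 0.10 (-0.43 to 0.62) and 0.32 (-0.15 to 0.78), so a 2-fold difference between severities lay outside each interval. None of these passed adjustment in limma, where the adjusted p was 0.999 or 1.

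**Figure D5:**
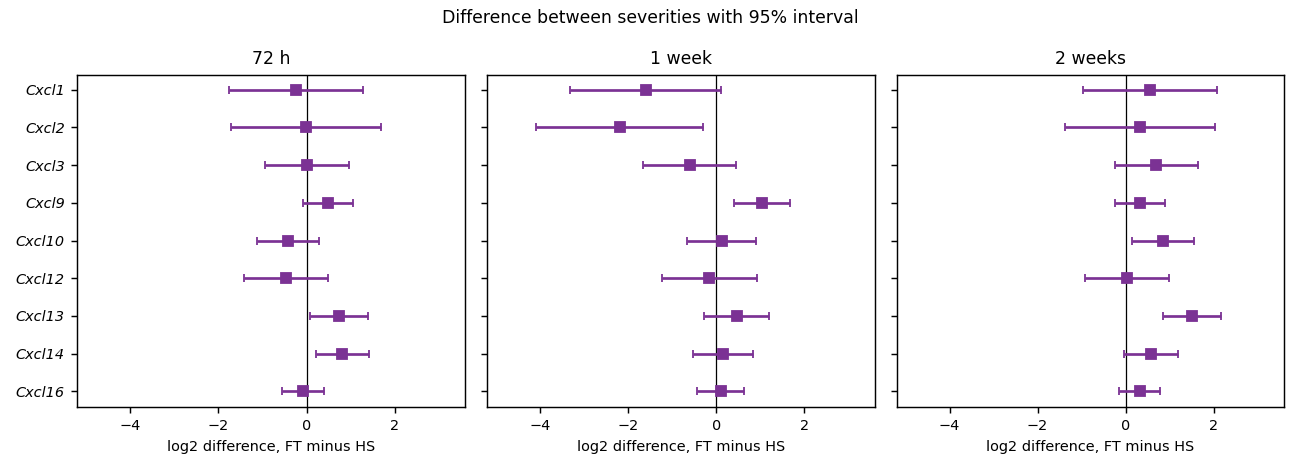
Log2 difference FT minus HS (x axis) of each CXC ligand at 72 h, 1 week and 2 weeks, with 95% intervals from the limma fit. The interval of Cxcl13 at 2 weeks, 0.85 to 2.16, lies farthest above 0, and those of Cxcl1 and Cxcl2 are the widest.

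Over the 20 libraries some members varied together. Pearson's r on the log2 scale was 0.91 between Cxcl1 and Cxcl2, 0.91 between Cxcl9 and Cxcl13, 0.85 between Cxcl13 and Cxcl16 and 0.71 between Cxcl10 and Cxcl16. It was -0.02 for Cxcl2 with Cxcl13 and -0.40 for Cxcl1 with Cxcl9. Cxcl10 did not fall clearly with either pair: r was 0.47 with Cxcl2 and 0.53 with Cxcl3, against 0.59 with Cxcl13, 0.37 with Cxcl9 and 0.32 with Cxcl14. These are descriptions over 20 libraries in 7 groups, which share time and injury. Among 14050 other genes with a mean of at least 1 CPM, the closest to Cxcl13 were Ccl5 (0.98), C3 (0.97) and Rxrg (0.95), and the closest to Cxcl9 were Ccl5 (0.94), Atp6v0d2 (0.93) and Ly6i (0.93). Cxcl10 was most like Isg15 (0.91), Gsto1 (0.90) and Ccl12 (0.90), and Cxcl16 most like Fam20c (0.95), Pianp (0.93) and Axl (0.92). Cxcl2 was most like Tnf (0.94), Cdkn1a (0.92) and Sdc4 (0.91), and Cxcl1 most like Cxcl2 (0.91), Id3 (0.90) and Cdkn1a (0.87). For the less variable or rarer members the closest were Tmem189 (0.88), Slc15a3 (0.87) and Tap1 (0.87) for Cxcl14, Itm2a (0.81), Ccdc36 (0.74) and Slc9a3r2 (0.74) for Cxcl12, and Traf1 (0.82), Angptl2 (0.79) and G3bp1 (0.79) for Cxcl3.

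No change from NI passed limma's test for Cxcr3, Cxcr5 or Cxcr6. Cxcr3, the receptor of Cxcl9 and Cxcl10, was at 1.64 CPM in NI and changed by -0.62 to 0.48 log2. Cxcr5, the receptor of Cxcl13, was at 1.64 CPM and changed by -0.60 to 0.11, and Cxcr6, the receptor of Cxcl16, was at 2.21 CPM and changed by -0.90 to 0.21. The edgeR likelihood ratio test and DESeq2 called Cxcr6 lower in HS at 72 h. Cxcr4, the receptor of Cxcl12, was higher in HS at 2 weeks (1.71, adjusted p = 0.0359) and in FT at 72 h (1.33, 0.0449) and 2 weeks (2.05, 0.00662, limma). The first 2 of these calls were lost without any 1 NI library, at 1.27 to 1.79 with adjusted p of 0.0829 to 0.118 in limma. Both were also lost with quantile scaling (1.67 and 1.27, adjusted p of 0.0509 and 0.0646, limma). With equal column totals they were lost at 1.405 and 0.88 (adjusted p of 0.0877 and 0.159, limma). The HS 2 weeks call was also lost without HS 2 weeks replicate 2 or 3 (1.43 and 1.53, adjusted p of 0.152 and 0.145), and the FT 72 h call without any 1 FT 72 h library (1.06 to 1.49, 0.0522 to 0.171) or without HS 72 h replicate 2, HS 2 weeks replicate 3 or either HS 1 week library, which enter the shared error (0.0507 to 0.0525, limma). In HS at 1 week Cxcr4 changed by 1.85 (adjusted p = 0.068, limma), a change that the edgeR likelihood ratio test and DESeq2 called. It was 30.77 and 32.96 CPM there, against 7.77 to 9.52 CPM in NI. Libraries low in immediate-early genes held less Cxcr4 than the others of their groups. In FT at 1 week they held 12.38 and 10.65 CPM, against 35.06 CPM. At 2 weeks the values were 20.59 against 51.02 and 47.12 CPM in FT, and 14.97 against 43.18 and 37.32 CPM in HS. Cxcr2, the receptor of Cxcl1 to Cxcl3, was lower in FT at 72 h (-1.06, adjusted p = 0.0101, limma), a call lost without NI replicate 3 (-0.91, 0.0601). Ackr1, an atypical receptor that binds inflammatory chemokines and is listed under its older symbol Darc, was higher in FT at 72 h (2.78, adjusted p = 0.00126, limma). Ackr3, the second receptor of Cxcl12, changed by -0.24 to 0.70 and did not pass.

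Of 38 other genes of the CXC system, 35 were in the table. In order of time, 2, 3 and 3 of the 35 were called higher than NI after HS and 4, 3 and 3 after FT. Of all genes 9.08%, 1.7% and 2.43% were called higher after HS and 8.14%, 2.86% and 3.53% after FT. In each comparison 1 of the 35 was called lower, except 2 in FT at 72 h. Of all 16810 genes 724, 81 and 134 were called lower after HS and 688, 201 and 228 after FT. Among genes of the interferon axis, Irf7, a transcription factor of the interferon response, rose in all 6 comparisons (1.63 to 2.90 log2), and Stat2, a signal transducer of interferon receptors, rose at 1 week after HS (1.05) and FT (1.11). Irf7 was 14.6 to 20.9 CPM in NI libraries against 47.5 to 201 CPM in injured ones, without overlap. At 1 week after HS, the Stat2 call was lost without either HS library (0.99 and 1.11, adjusted p of 0.0995 and 0.0529, limma). Without the 4 libraries low in immediate-early genes the Stat2 change in FT at 1 week was 0.80 (adjusted p = 0.0507, limma), and with equal column totals the Stat2 changes were 0.84 after HS and 0.76 after FT, short of 2-fold. In the NF-kB axis limma called 0 of 60 pairs of gene and comparison, from 10 genes, with 14 at an unadjusted p under 0.05, while both edgeR tests and DESeq2 each called 2, all higher and in Il1b or Il1r1. For the 3 ligand-processing enzymes limma, both edgeR tests and DESeq2 called 0 of 18, with 7 at an unadjusted p under 0.05 in limma. Such an unadjusted p was common among all 16810 genes in limma. At 72 h 6608 genes reached it in HS against NI and 6156 in FT against NI. The matching counts were 2147 (HS) and 3060 (FT) at 1 week, then 2708 (HS) and 3211 (FT) at 2 weeks. Of the 5 other CXC ligands limma called 1 lower in each comparison. Both edgeR tests called Cxcl11, a further ligand of CXCR3, higher in FT at 2 weeks, and the likelihood ratio test called Ppbp, a platelet chemokine, higher in FT at 72 h, while limma and DESeq2 called neither. Cxcl17, a mucosal chemokine, fell at 72 h after HS (-1.75) and FT (-2.10) and at 1 week after FT (-1.04), and Pf4, a platelet and macrophage chemokine, fell at 1 week (-1.34) and 2 weeks (-1.63) after HS and 2 weeks after FT (-1.69). The 7 border macrophage markers summed to 156 to 184 CPM in NI, 139 to 141 in HS at 1 week, 90.1 to 113 in HS at 2 weeks and 122 to 139 in FT at 2 weeks, with 2, 5 and 5 of 7 called lower and 1, 1 and 2 higher by limma, and their part in the Pf4 level was not tested. The last Cxcl17 call was lost without NI replicate 2 or 3 or FT 1 week replicate 2 or 3 (-0.97 to -1.04, adjusted p of 0.0562 to 0.0976), and the first Pf4 call without HS 1 week replicate 1 (-1.22, 0.109, limma). Without the 4 libraries low in immediate-early genes, the Cxcl17 change in FT at 1 week was -1.03.

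The monocyte markers were also higher after injury. Of 8 monocyte markers 3 were called higher in HS and 6 in FT at 72 h, where 9.08% and 8.14% of all genes were. In each later group 1 was, where 1.7% to 3.53% of all genes were. The summed level was 68.4 to 98.6 CPM in HS and 45.8 to 98.4 CPM in FT at 1 week, and 54.2 to 78.2 and 73.2 to 78 CPM at 2 weeks. Ms4a4c and Ccr2 weighed most in it, with medians over the libraries of 34.4 and 22.8 CPM. No other monocyte marker had a median above 3.49 CPM. Their part in the ligand levels was not tested.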

How the data were processed

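Sorted eGFP-bright cells from spinal cord were sequenced as 20 libraries in 7 groups, taken from the sample labels. Per the authors, adapter-trimmed reads were mapped to mm10 (GRCm38) with TopHat2 2.0.9, counted with HTSeq 0.5.4p3, kept for genes with 10 counts in at least 2 replicates, and normalised with edgeR 3.3.6. The deposited signal values are on a counts-per-million scale, reads divided by library size and a factor, and 99.989% of 336200 values were whole multiples of each library's smallest step (tolerance 0.001 step). Here, limma 3.58.1 with an intensity trend was fitted to log2(CPM + 0.5) of all 16810 genes and 20 libraries, with 1 mean per group and Benjamini-Hochberg adjustment in each of 15 comparisons. This adds to low values and understates their fold changes. Fold changes are on that scale, errors are SE, and p-values are two-sided. Alternatives were other added values, filters, scalings, fits to the compared samples alone, a replicate block, and edgeR 4.0.16 and DESeq2 1.42.0 on the recovered reads. For HS against NI, in order of time, edgeR by quasi-likelihood gave 2843, 370 and 540 genes (limma 2250, 367 and 543), and for FT 2217, 775 and 898 (limma 2057, 681 and 821). The code was tested on simulated data. The 19 pairs of replicates had a variance 11.6 to 112 times sampling noise, so none was taken for a repeat deposit of another. The labels do not tie libraries to single animals, and p-values measure the spread between these libraries. The labels give no batch. Same-numbered libraries of HS and FT at 72 h deviated together (r of 0.143, 0.267 and 0.179). Those of HS at 2 weeks and FT at 72 h did so too (0.152, 0.322 and 0.12). This pairing was read from the data, and the block was fitted as an alternative. Every member was named. Other genes of the CXC system were named by the number of comparisons that called them, up to 3 per role, with the members' receptors in any case, and similar genes by the highest Pearson's r. Some listed genes are not reported here. Members and lists were chosen with earlier results of these data known.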

Additional observations from a re-analysis of the deposited data

Results flagged for a closer look

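Time within an injury gave 11 member differences that passed limma's test (Benjamini-Hochberg over 16810 genes, at least 2-fold), which is a test of the change from NI at one time against that at another, since the NI libraries cancel. For Cxcl9 the log2 level at 1 week exceeded that at 72 h by 1.78 after HS (adjusted p = 0.000696) and 2.34 after FT (5.21e-06), and at 2 weeks by 3.39 after HS (3.32e-08) and 3.24 after FT (4.18e-08), all by limma. For Cxcl13 the same differences were 3.48 (8.93e-07) and 3.21 (4.01e-07) at 1 week and 3.31 (2.98e-07) and 4.08 (1.44e-08) at 2 weeks, by limma. At 2 weeks Cxcl14 exceeded 72 h by 1.40 after HS and 1.16 after FT, and Cxcl16 by 1.16 after FT, with adjusted p of 0.00327, 0.0182 and 0.0023 in limma. Groups of 2 or 3 libraries were not searched for outlying libraries.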

How the results depend on the processing

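For the members, 78 results were recomputed under up to 33 alternatives, and 2487 of 2568 values kept direction and side of the threshold, 27 lost the call, 31 gained it and 23 changed sign, all of the last from changes that had not passed. With equal column totals the median of all genes moved to between -0.52 and -0.17 log2 from NI. Of 9 members, 1 was called in HS at 72 h with 1 CPM added, and 1 each in FT against HS at 2 weeks and in 2 weeks against 1 week after HS and after FT, by the edgeR likelihood ratio test and by DESeq2, against 0. Leaving out 1 library, the count was 1 to 2 in HS at 72 h, the lower value without any 1 NI replicate, and 2 to 4 in HS at 1 week, the lower value without HS 1 week replicate 1. Changes that reversed were Cxcl1 in HS at 2 weeks (0.35) and FT at 1 week (0.20) and Cxcl12 (0.036) and Cxcl2 (1.58) in FT at 1 week without the 4 libraries low in immediate-early genes, an alternative chosen after seeing the data. Cxcl1 in FT at 2 weeks became -0.073 with equal column totals. Cxcl2 in FT at 1 week became 0.32 and 0.33 by the edgeR quasi-likelihood and likelihood ratio tests and 0.31 by DESeq2. Cxcl9 in FT at 72 h became 0.017 with 0.1 CPM added, 0.0030 with median-of-ratios scaling and 0.22 with quantile scaling, and Cxcl14 in HS at 72 h became 0.0015 with quantile scaling. Leaving out 1 library moved Cxcl1 in HS at 2 weeks from -0.66 to 0.35 and in FT at 2 weeks from -0.32 to 1.36, Cxcl2 in FT at 1 week from -1.20 to 0.22, Cxcl9 in FT at 72 h from -0.19 to 0.29 and Cxcl14 in HS at 72 h from -0.32 to 0.015. The cause was not tested. DESeq2 gave no adjusted p for Cxcl3 in 6 of its values, which are not counted as lost. Deviations of same-numbered libraries correlated between -0.39 and 0.38 (median -0.0017), with 20 of 57 pairs over 0.1. Of the comparisons with 3 pairs, all 3 were over 0.1 in FT against HS at 72 h alone. All 3 were also over 0.1 between HS at 2 weeks and FT at 72 h (0.152, 0.322 and 0.12), groups that were not compared. With a replicate block every count of called members stayed as it was, at 2, 4 and 5 after HS and 3, 4 and 5 after FT and at 0 in FT against HS at 72 h, and of the other genes named Cxcr4 lost its call in FT at 72 h (1.33, adjusted p = 0.0513, limma). Depth limits Cxcl3, for which 1 read in NI changes the ratio, and Cxcl13, which had 4, 3 and 3 reads in NI.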
